A study of Mus musculus with 12 samples.

Results

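Insulin and IGF receptor signalling was followed in brown fat through 10 genes, taken from the table by name. That rule uses no measured value, but the list of names was drawn up with earlier results of these data known. They were the receptors *Insr* and *Igf1r*, the receptor substrates *Irs1* and *Irs2*, the receptor-binding adaptor *Grb10*, the PI3-kinase subunit *Pik3r1*, the kinases *Akt1* and *Akt2*, and the AKT substrates *Foxo1* and *Tbc1d4*. All 10 were among the 61210 genes listed, and all 10 passed the low-count filter that left 16737 genes for testing.

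Total RNA-seq had been made from iBAT of wild type C57BL/6N mice aged 20 weeks. The study's methods use iBAT for interscapular brown adipose tissue, whereas the series text calls it inguinal, and which depot was taken cannot be told from the values. The 4 groups held 3 libraries each. Mice on the control diet (NCD, a chow) were kept at the control temperature of 22 °C or moved to 4 °C for 24 h, and mice on a high-fat diet (HFD), given for 12 weeks from the age of 8 weeks, were housed in the same 2 ways. No group carried a transgene or a deletion, and the labels do not say whether a library came from 1 animal, so p-values measure the spread between these libraries only.

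Insulin and IGF1 bind related receptor tyrosine kinases, which phosphorylate the IRS proteins. These recruit PI3-kinase, whose lipid product activates AKT. AKT in turn holds FOXO1 out of the nucleus and inhibits TBC1D4, which lets vesicles with the glucose transporter GLUT4 reach the cell surface. In brown adipocytes the pathway is known for driving glucose uptake and lipid synthesis and for its part in the growth of the tissue.

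The libraries held 15136861 to 46740702 counts, and the members 306 to 21236 counts in each. The deeper libraries, replicate 3 of each group, formed batch 2 of the labels, and replicates 1 and 2 formed batch 1. *Ucp1*, the uncoupling protein that defines brown fat, stood at 3789 to 18810 CPM, the count scaled to library size with edgeR's TMM factors, in every library. The summed level of 10 skeletal muscle markers stood apart in 1 library of each group, with 16510 CPM in replicate 2 on NCD at 22 °C, 9411 CPM in replicate 2 on NCD at 4 °C, 17570 CPM in replicate 3 on HFD at 22 °C and 5452 CPM in replicate 3 on HFD at 4 °C, against 540 to 3336 CPM in the other 8. None of these 10 markers passed the test in any comparison of 2 groups (edgeR quasi-likelihood test). The calls of the 10 genes are also given below with a muscle score as a term. Those of the further pathway genes and FOXO targets are given without it. For these genes the dependence on single libraries, batch or replicate block was not examined either. Since the samples are bulk tissue, fewer cells of a type and less RNA per cell cannot be told apart.

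A gene is said to have risen or fallen where edgeR's quasi-likelihood test over all 12 libraries gave a Benjamini-Hochberg adjusted p under 0.05 over all genes tested and a log2 fold change beyond 0.5 in size. Gaps between the libraries of groups are given below as a description. The share of all genes with such gaps was not counted. Cold on NCD raised 2 of the 10 genes, *Irs2* and *Insr*, and lowered 0, while 3.72% of all genes tested rose and 2.55% fell. Cold on HFD raised 1 member, *Irs2*, and lowered 0, with 5.39% of all genes higher and 4.19% lower. HFD at 22 °C raised 0 and lowered 0 members, where 0.992% and 1.09% of all genes did so. HFD at 4 °C raised 0 members and lowered 1, *Tbc1d4*, against 2.06% and 2.69% of all genes. The median log2 fold changes of the 10 genes were 0.13, 0.02, -0.04 and -0.13 in these comparisons, and those of all genes tested -0.01, -0.04, 0.03 and 0.02. Where the count in a direction was 0, the members under an unadjusted p of 0.05 in that direction numbered 1 lower for cold on NCD (*Pik3r1*; 9.26% of all genes), 2 lower for cold on HFD (*Akt2* and *Tbc1d4*; 13.0%), 0 higher (9.89%) and 1 lower (*Pik3r1*; 8.23%) for HFD at 22 °C, and 2 higher for HFD at 4 °C (*Igf1r* and *Grb10*; 10.8%). DESeq2 called 0 of them, although *Tbc1d4* for cold on HFD missed only the fold threshold there (-0.4999, DESeq2 adjusted p = 0.0359).

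**Figure D1:**
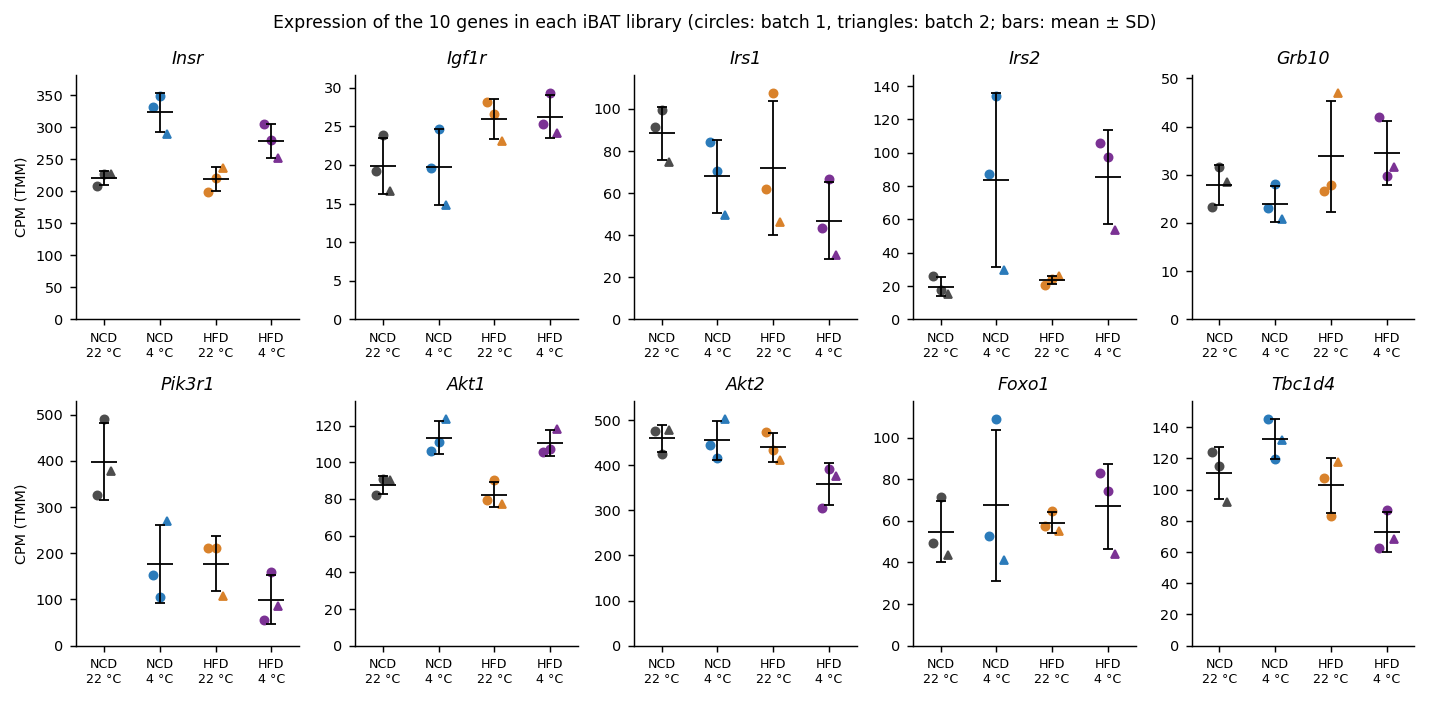
Level of each of the 10 genes in every library, in CPM on a linear axis from 0, for the 4 diet and temperature groups; circles are batch 1, triangles batch 2, and bars give the mean and SD of 3 libraries. *Irs2* is higher in all 6 cold libraries (29.5 to 134 CPM) than in the 6 libraries at 22 °C (15.2 to 26.1 CPM), whereas *Tbc1d4* is lowest on HFD at 4 °C.

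*Insr* encodes the insulin receptor and lies on the minus strand of chromosome 8 (3122061 to 3279617, GRCm38). Its level on NCD was 208, 228 and 226 CPM in replicates 1 to 3 at 22 °C and 332, 349 and 289 CPM at 4 °C. On HFD it was 200, 220 and 237 CPM at 22 °C and 305, 280 and 252 CPM at 4 °C. The cold libraries lay above those at 22 °C on both diets, with no overlap within a diet. On NCD *Insr* rose 1.47-fold (log2 fold change 0.55, SE 0.11, n = 3 libraries against 3, edgeR adjusted p = 0.0147). On HFD the log2 fold change was 0.35 (95% interval 0.10 to 0.60, edgeR adjusted p = 0.0683), which missed the threshold. The difference between the responses on the 2 diets was -0.20 on the log2 scale (95% interval -0.55 to 0.15, edgeR adjusted p = 0.862). In batch 1 alone the value for NCD was 0.64 (edgeR adjusted p = 0.0499), and with the muscle score as a term it was 0.57 and passed. The call was lost without NCD replicate 1 at 22 °C (0.52, edgeR adjusted p = 0.0595), NCD replicate 3 at 22 °C (0.58, edgeR adjusted p = 0.0508) or NCD replicate 2 at 4 °C (0.50, edgeR adjusted p = 0.0566).

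*Igf1r*, the IGF1 receptor gene on the plus strand of chromosome 7 (67952827 to 68233668), was the least abundant member per kilobase of exon. Its NCD libraries held 19.2, 23.8 and 16.6 CPM at 22 °C and 19.7, 24.7 and 14.8 CPM at 4 °C. HFD libraries held 28.2, 26.6 and 23.1 CPM at 22 °C and 25.3, 29.4 and 24.1 CPM at 4 °C. Levels overlapped between temperatures on both diets, and 4 of the 6 HFD libraries lay above all 6 NCD libraries. The log2 fold change with cold was -0.01 on NCD (95% interval -0.43 to 0.40) and 0.02 on HFD (95% interval -0.39 to 0.43). With HFD it was 0.39 at 22 °C (edgeR adjusted p = 0.309) and 0.42 at 4 °C (edgeR adjusted p = 0.214), and neither passed. Per kilobase of exon, *Insr* exceeded *Igf1r* 11.7- to 16.7-fold on NCD at 22 °C, 17.3- to 23.9-fold on NCD at 4 °C, 8.66- to 12.5-fold on HFD at 22 °C and 11.6- to 14.7-fold on HFD at 4 °C.

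*Irs2* encodes a docking protein that links the insulin and IGF1 receptors to PI3-kinase, and it showed the widest change of the 10 genes. It lies on the minus strand of chromosome 8 (10984681 to 11008458, GRCm38). The RefSeq promoter window starts farther upstream, at 11008929. The 120 bases before that start (chr8:11008930-11009049, minus strand, GRCm38.p6) are shown because this gene carried the strongest cold response among the members, with no part in capitals since none of the motifs searched was found in them.

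Irs2 promoter: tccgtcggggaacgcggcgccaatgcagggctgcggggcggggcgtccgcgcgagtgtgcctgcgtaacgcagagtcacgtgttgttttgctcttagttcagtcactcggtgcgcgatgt

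The motifs searched on both strands of each 300-base window, 250 bases before to 50 after the start, were a FOXO site TGTTTAC, an insulin response element TATTTTG, the cAMP response element TGACGTCA, its shorter form TGACG (which the full element contains) and an SREBP site TCACNCCAC. Of 32851 RefSeq promoter windows, 3.65%, 4.36%, 1.79%, 20.8% and 1.24% held them. RefSeq windows were matched for 9 of the 10 genes, all but *Insr*. Besides *Pik3r1*, described below, the FOXO letters were found in a window of *Akt1*, and the short TGACG in windows of *Irs1*, *Grb10* and *Akt2*. The 250 bases before the *Irs2* start were 72.8% G and C, against a median of 52.4% over all promoters.

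On NCD, *Irs2* stood at 26.1, 17.8 and 15.2 CPM at 22 °C and at 87.5, 134 and 29.5 CPM at 4 °C. On HFD it stood at 20.9, 24.0 and 26.1 CPM at 22 °C and at 106, 97.1 and 53.4 CPM at 4 °C. Every cold library exceeded every library at 22 °C, and the lowest cold value on each diet was that of batch 2. The rise was 4.26-fold on NCD (log2 fold change 2.09, SE 0.45, edgeR adjusted p = 0.0190) and 3.60-fold on HFD (log2 fold change 1.85, SE 0.45, edgeR adjusted p = 0.0234). Between same-numbered libraries the ratio of 4 °C to 22 °C was 3.36, 7.53 and 1.94 on NCD and 5.07, 4.05 and 2.05 on HFD. The response on HFD differed from that on NCD by -0.24 on the log2 scale (95% interval -1.60 to 1.12, edgeR adjusted p = 0.963). Diet itself gave log2 fold changes of 0.27 at 22 °C (95% interval -0.70 to 1.24) and 0.03 at 4 °C (95% interval -0.92 to 0.98). Within batch 1 the cold values were 2.34 on NCD (edgeR adjusted p = 0.0157) and 2.18 on HFD (edgeR adjusted p = 0.0185). With the muscle score as a term they were 2.11 on NCD and 1.94 on HFD, and both passed. The 8 brown adipocyte markers also summed higher with cold, from 5895 to 7370 CPM at 22 °C to 19620 to 23090 CPM at 4 °C on NCD, and from 8107 to 10210 CPM to 15600 to 18900 CPM on HFD, with 4 and 3 of the 8 past the test. Their part in the rise of *Irs2* and *Insr* was not tested. An opposite-strand noncoding gene that overlaps an *Irs2* exon, 9530052E02Rik, held 1 to 8 counts per library.

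The spread of *Irs2* among cold libraries made its calls depend on single samples, although no fit turned the direction of the cold response. On NCD the call was lost without NCD replicate 2 at 22 °C (log2 fold change 2.03, edgeR adjusted p = 0.0767), NCD replicate 3 at 22 °C (1.94, edgeR adjusted p = 0.0844) or NCD replicate 2 at 4 °C (1.57, edgeR adjusted p = 0.0709), and the value without NCD replicate 3 at 4 °C was 2.51. On HFD it was lost without replicate 1 (1.80), 2 (1.86) or 3 (1.93) at 22 °C and without replicate 1 (1.69) or 2 (1.75) at 4 °C, with edgeR adjusted p of 0.0519 to 0.0751. NCD replicate 2 at 4 °C, the highest *Irs2* library, was the one with 9411 CPM of muscle markers, against 1138 and 1314 CPM in the others of its group. The other muscle-rich libraries did not share 1 direction. *Irs2* was the lowest of its group in HFD replicate 3 at 4 °C (53.4 CPM). It lay between the others in NCD replicate 2 at 22 °C (17.8 CPM) and was the highest in HFD replicate 3 at 22 °C (26.1 CPM).

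*Irs1*, the paralogue of *Irs2* on chromosome 1 (82233101 to 82291416, minus strand), held 91.3, 99.5 and 74.7 CPM on NCD at 22 °C and 84.2, 70.3 and 49.8 CPM at 4 °C. On HFD its levels were 61.9, 108 and 46.3 CPM at 22 °C and 43.2, 66.8 and 30.8 CPM at 4 °C. The groups overlapped on HFD and on NCD, but each cold library lay below its same-numbered partner, with ratios of 0.922, 0.707 and 0.666 on NCD and 0.698, 0.62 and 0.666 on HFD. Without regard to number, the log2 fold change with cold was -0.38 on NCD (edgeR adjusted p = 0.580) and -0.62 on HFD (edgeR adjusted p = 0.258). With the replicate number within a diet as a block, the log2 fold change of *Irs1* with cold on HFD was -0.60 (SE 0.11, edgeR adjusted p = 0.00973), which passed. It passed in no other of the 9 alternative fits, and in 0 of 12 fits that left out 1 library. Diet gave -0.30 at 22 °C and -0.54 at 4 °C, neither past the threshold. A protein-coding gene annotated on the opposite strand, Gm9747, overlaps an *Irs1* exon, and reads of such a pair can be told apart only where counting used strand, which is not given in the sources used here.

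Per kilobase of exon, the ratio of *Irs2* to *Irs1* was 0.413, 0.259 and 0.294 on NCD at 22 °C, and 1.5, 2.76 and 0.858 on NCD at 4 °C. On HFD it was 0.488, 0.322 and 0.815 at 22 °C and 3.54, 2.10 and 2.51 at 4 °C. *Irs1* was thus the more abundant transcript in all 6 libraries at 22 °C, and *Irs2* in 5 of 6 cold libraries.

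**Figure D2:**
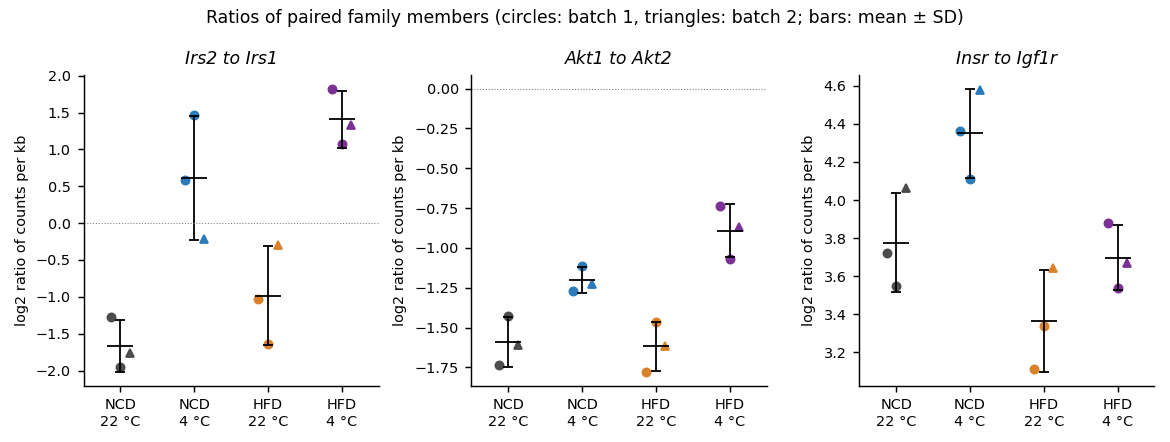
Log2 ratios of counts per kilobase of exon between paired family members in every library, by group (log2 axis; circles batch 1, triangles batch 2, bars mean and SD of 3 libraries; the dotted line marks equal levels). The ratio of *Irs2* to *Irs1* lies below 1 in all libraries at 22 °C and above 1 in 5 of 6 at 4 °C, and that of *Akt1* to *Akt2* stays below 1 throughout.

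*Grb10*, an imprinted gene whose adaptor protein binds and restrains the insulin and IGF1 receptors, lies on chromosome 11 (11930508 to 12038683, minus strand). On NCD it was measured at 23.3, 31.6 and 28.5 CPM at 22 °C and 23.1, 28.1 and 20.8 CPM at 4 °C. On HFD it was measured at 26.5, 27.9 and 47 CPM at 22 °C and 42.0, 29.7 and 31.7 CPM at 4 °C. The 3 HFD libraries at 4 °C lay above the 3 NCD libraries at 4 °C, and the difference of 0.52 on the log2 scale (95% interval 0.03 to 1.02, edgeR adjusted p = 0.199) missed the threshold. Cold gave -0.21 on NCD and 0.02 on HFD (edgeR adjusted p = 0.664 and 0.958). The highest value, 47 CPM, came from the HFD library at 22 °C with 17570 CPM of muscle markers.

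*Pik3r1* encodes the regulatory subunits of class I PI3-kinase, the long p85alpha from an upstream start and shorter forms from starts within the gene (chromosome 13, 101680563 to 101768217, minus strand). Windows for an upstream and an internal start were matched in RefSeq. Both are shown because the gene-level count adds their transcripts and cannot tell which start a read came from. Capitals mark the short cAMP response element, which reads TGACG on the other strand.

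Pik3r1 upstream start, chr13:101768218-101768337: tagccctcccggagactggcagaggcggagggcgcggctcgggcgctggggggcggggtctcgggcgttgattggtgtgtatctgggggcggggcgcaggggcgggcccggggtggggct

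Pik3r1 internal start, chr13:101692631-101692750: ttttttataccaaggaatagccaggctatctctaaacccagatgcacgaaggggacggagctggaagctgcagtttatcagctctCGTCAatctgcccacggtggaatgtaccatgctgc

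The upstream window was 76.4% G and C over 250 bases and held none of the 5 motifs. The internal window was 42.4% G and C and held, besides the short cAMP response element 35 to 31 bases before the start, an insulin response element 151 to 145 bases before it.

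*Pik3r1* on NCD stood at 327, 491 and 377 CPM at 22 °C and at 153, 105 and 269 CPM at 4 °C. On HFD it stood at 211, 212 and 109 CPM at 22 °C and at 56.2, 159 and 84.8 CPM at 4 °C. NCD at 22 °C was the highest group, and none of its libraries overlapped another group, which is a description and not a test. The log2 fold changes were -1.18 for cold on NCD (95% interval -2.10 to -0.26, edgeR adjusted p = 0.118), -0.83 for cold on HFD (edgeR adjusted p = 0.227), -1.17 for HFD at 22 °C (95% interval -2.09 to -0.25, edgeR adjusted p = 0.171) and -0.82 for HFD at 4 °C (edgeR adjusted p = 0.277). None of the 4 passed the threshold. On NCD, where the groups did not overlap, the ratios of same-numbered cold libraries to those at 22 °C were 0.467, 0.214 and 0.713. On HFD, where the groups overlapped, each cold library lay below its same-numbered partner, with ratios of 0.267, 0.749 and 0.782. The gene was called for cold on NCD only where no low-count filter was used (-1.16, edgeR adjusted p = 0.0476).

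*Akt1*, on chromosome 12 (112653821 to 112674884, minus strand), encodes a serine/threonine kinase known for its part in growth and survival. On NCD it held 82.1, 90.8 and 90.1 CPM at 22 °C and 106, 111 and 124 CPM at 4 °C, and on HFD 79.5, 90.4 and 77.4 CPM at 22 °C and 106, 108 and 118 CPM at 4 °C. All 6 cold libraries lay above all 6 at 22 °C. The log2 fold change was 0.37 on NCD (SE 0.10, edgeR adjusted p = 0.0434) and 0.42 on HFD (SE 0.10, edgeR adjusted p = 0.0199), so both passed the adjusted p but not the fold threshold. At an adjusted p under 0.05 and any fold, 3 of 10 members were higher with cold on NCD, against 4.74% of all genes, and 2 of 10 on HFD, against 6.90%. With the replicate number as a block, the adjusted p of edgeR was 0.0517 on NCD and 0.0250 on HFD. Within batch 1 the values were 0.33 on both diets (edgeR adjusted p = 0.184 and 0.162). The interaction of diet and cold was 0.05 on the log2 scale (95% interval -0.26 to 0.36).

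*Akt2*, the AKT gene best known for insulin-stimulated glucose uptake (chromosome 7, 27591552 to 27640826, plus strand), was the most abundant member per kilobase. On NCD it stood at 476, 424 and 478 CPM at 22 °C and 446, 417 and 503 CPM at 4 °C, and on HFD at 473, 434 and 411 CPM at 22 °C and 305, 393 and 376 CPM at 4 °C. The 3 HFD libraries at 4 °C were the lowest of the 12. The log2 fold change was -0.35 for HFD at 4 °C (95% interval -0.62 to -0.08, edgeR adjusted p = 0.123) and -0.30 for cold on HFD (95% interval -0.57 to -0.03, edgeR adjusted p = 0.145), and neither passed. Cold on NCD gave -0.01 (95% interval -0.28 to 0.26). The ratio of *Akt1* to *Akt2* per kilobase was 0.300 to 0.372 on NCD and 0.292 to 0.362 on HFD at 22 °C, and 0.414 to 0.462 on NCD and 0.477 to 0.601 on HFD at 4 °C.

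*Foxo1*, on chromosome 3 (52268336 to 52353221, plus strand), encodes the forkhead factor that AKT keeps out of the nucleus. Its NCD libraries held 49.2, 71.4 and 43.7 CPM at 22 °C and 52.6, 109 and 41.1 CPM at 4 °C, and its HFD libraries 57.7, 64.7 and 55.1 CPM at 22 °C and 82.9, 74.1 and 43.9 CPM at 4 °C. All 4 groups overlapped. The 2 NCD libraries with the highest *Foxo1*, at 71.4 and 109 CPM, were those with 16510 and 9411 CPM of muscle markers. On HFD it was the other way round. The libraries with 17570 and 5452 CPM of muscle markers held the lowest *Foxo1* of their groups, 55.1 and 43.9 CPM. The part of muscle in these values was not tested. The log2 fold changes ran from -0.01 (HFD at 4 °C, 95% interval -0.76 to 0.73) to 0.30 (cold on NCD, 95% interval -0.45 to 1.05), with edgeR adjusted p from 0.688 to 0.990.

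*Tbc1d4* encodes a Rab GTPase-activating protein, also called AS160, that holds GLUT4 vesicles inside the cell until AKT phosphorylates it (chromosome 14, 101442360 to 101609191, minus strand). On NCD its level was 124, 115 and 92.0 CPM at 22 °C and 145, 120 and 132 CPM at 4 °C. On HFD its level was 108, 83.4 and 118 CPM at 22 °C and 62.7, 87.1 and 68.6 CPM at 4 °C. The 3 HFD libraries at 4 °C lay below all 3 NCD libraries at 4 °C. *Tbc1d4* fell by 0.86 on the log2 scale with HFD at 4 °C (SE 0.17, edgeR adjusted p = 0.0166), to 0.55 times the NCD level. The summed level of 6 adipocyte markers was 11790 to 13700 CPM on NCD at 4 °C and 7384 to 9534 CPM on HFD at 4 °C, with 1 of the 6 past the test (*Fabp4*), and its part in this value was not tested. At 22 °C the diet gave -0.10 (95% interval -0.47 to 0.26, edgeR adjusted p = 0.810). Cold gave 0.26 on NCD (edgeR adjusted p = 0.410) and -0.50 on HFD (edgeR adjusted p = 0.0765). The interaction was -0.76 on the log2 scale (95% interval -1.28 to -0.24), with an unadjusted p of 0.00775 and an adjusted p of 0.601 in edgeR's test, so a difference between the diets in the cold response was not shown.

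With the muscle score as a term the fall of *Tbc1d4* was 0.85 on the log2 scale (edgeR adjusted p = 0.0160). In batch 1 alone the value was -0.82 (edgeR adjusted p = 0.152), and in batch 2 the single libraries held 132 and 68.6 CPM. The call was lost without replicate 1 of NCD at 4 °C (-0.80, edgeR adjusted p = 0.0646), replicate 3 of NCD at 4 °C (-0.87, edgeR adjusted p = 0.0524), replicate 1 of HFD at 4 °C (-0.74, edgeR adjusted p = 0.0741) or replicate 3 of HFD at 4 °C (-0.81, edgeR adjusted p = 0.0657). Without replicate 2 of HFD at 4 °C the value for cold on HFD was -0.65 (edgeR adjusted p = 0.0419), which passed.

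**Figure D3:**
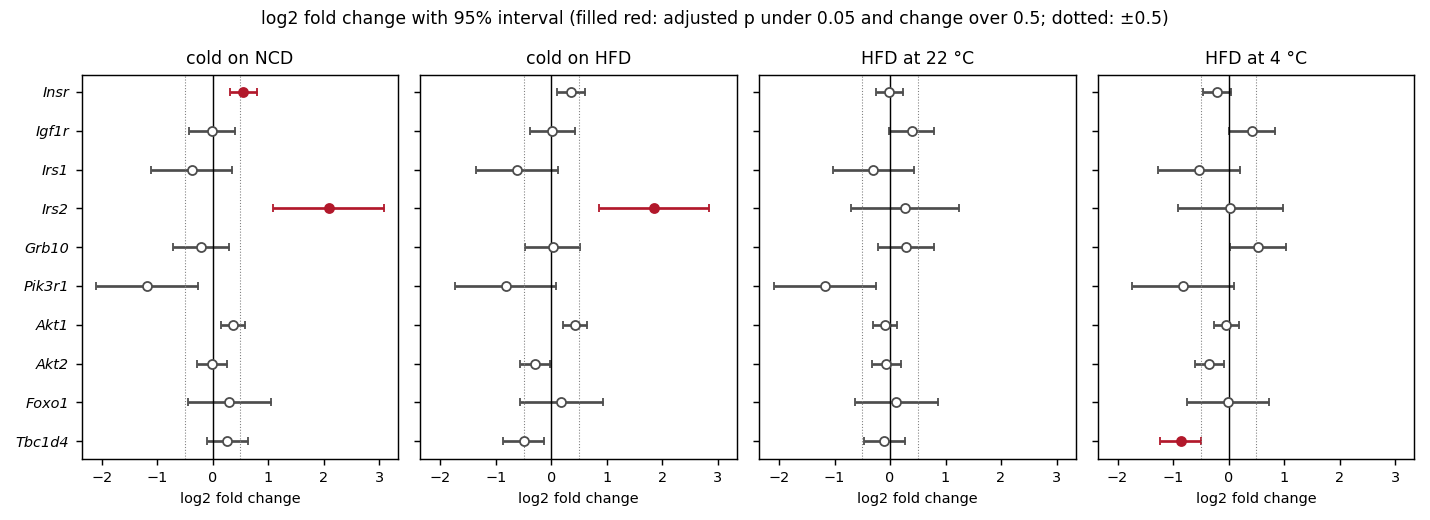
Log2 fold change of each of the 10 genes in the 4 comparisons with its 95% interval from the edgeR fit; filled red points had an adjusted p under 0.05 and a change over 0.5 in size, and dotted lines mark that size. *Irs2* lies near 2 with cold on both diets, *Insr* passes on NCD (0.55) and not on HFD (0.35), a difference that did not pass its own test, and *Tbc1d4* is the only filled point among the diet comparisons.

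Across all 4 groups together, 0 of the 10 genes reached an adjusted p under 0.001 in edgeR's quasi-likelihood F test, where 2.55% of all genes did. Under an unadjusted p of 0.05 there were 6, against 38.9% of all genes, and DESeq2 placed 4 members and 2625 genes under an adjusted p of 0.001. At an adjusted p under 0.05, 5 members passed, against 24.3% of all genes, namely *Irs2* (0.00752), *Insr* (0.00850), *Akt1* (0.0107), *Tbc1d4* (0.0178) and *Pik3r1* (0.0227). The interaction of diet and temperature passed for 0 members and for 0% of all genes in the edgeR test. Under an unadjusted p of 0.05 it held 1 member, *Tbc1d4*, and 1091 of all genes, and DESeq2 called 0 members and 64 genes.

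The members were ordered by level per kilobase of exon on NCD at 22 °C. The lengths are of merged exons and not of the transcripts expressed. Since the genes have from 1 (*Irs1*) to 14 (*Akt2*) annotated transcripts, the order and the ratios between genes are approximate. *Akt2* led with 64.5 ± 4.29 CPM per kb (SD, n = 3), followed by *Pik3r1* (39.5 ± 8.31), *Akt1* (21.4 ± 1.18), *Insr* (16.0 ± 0.81), *Tbc1d4* (14.4 ± 2.17), *Irs1* (9.68 ± 1.38), *Foxo1* (6.32 ± 1.69), *Irs2* (3.11 ± 0.90), *Grb10* (3.06 ± 0.46) and *Igf1r* (1.18 ± 0.22). The libraries of *Insr* and *Tbc1d4*, of *Irs1* and *Foxo1*, and of *Irs2* and *Grb10* overlapped, and those of the other neighbours in this order did not.

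The genes whose log2 CPM followed the called members most closely over the 12 libraries are given as a description, since the libraries share their groups and batches. For *Insr* they were *Grpel2*, *Flcn* and *Arih2* (Pearson r = 0.964, 0.962 and 0.954). For *Irs2* they were *Zfp691*, *Phospho1* and *Sik3* (r = 0.984, 0.976 and 0.976), and for *Tbc1d4* they were *Agtpbp1*, *Hdhd5* and *Nudt3* (r = 0.927, 0.926 and 0.919).

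Around the 10 genes, 66 further genes of the insulin and IGF pathway were examined, of which 60 passed the low-count filter. *Ins1*, *Ins2*, *Insrr*, *Igfbp1*, *Igfbp2* and *Irs4* did not. Cold on NCD raised 4 and lowered 3 of the 60, where 3.72% of all genes rose and 2.55% fell. Cold on HFD raised 3 and lowered 2, against 5.39% and 4.19% of all genes. HFD at 22 °C raised 0 and lowered 2, against 0.992% and 1.09%, and HFD at 4 °C raised 2 and lowered 3, against 2.06% and 2.69%. The median log2 fold change of the 60 was -0.02, -0.02, -0.04 and -0.02 in that order, and that of all genes -0.01, -0.04, 0.03 and 0.02.

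Among ligands and binding proteins, *Igf1* held 29.9, 35.3 and 37.6 CPM on NCD at 22 °C, and 12.5, 10.9 and 10.5 CPM on NCD at 4 °C. On HFD it held 12.2, 12.8 and 11.3 CPM at 22 °C and 8.24, 8.89 and 15.8 CPM at 4 °C. It was thus high in the NCD group at 22 °C and low in the other 3. The log2 fold change of *Igf1* was -1.60 for cold on NCD (SE 0.22, edgeR adjusted p = 0.00207) and -1.5 for HFD at 22 °C (SE 0.22, edgeR adjusted p = 0.00698). For cold on HFD the log2 fold change was -0.13 (edgeR adjusted p = 0.733), and the interaction was 1.47 (edgeR adjusted p = 0.339). *Igfbp5*, which encodes an IGF-binding protein, had a log2 fold change of -0.92 for cold on NCD (edgeR adjusted p = 0.00659). The third gene lowered there, named after its value was seen, was *Eif4ebp1*, which encodes a translation repressor that mTOR inactivates (-0.55, edgeR adjusted p = 0.0480). The summed level of 5 fibroblast and preadipocyte markers was 1043 to 1631 CPM on NCD at 22 °C and 359 to 758 CPM in the other 9 libraries, 3 of the 5 passed the test for cold on NCD and 0 for HFD at 22 °C, and their part in the values of *Igf1* and *Igfbp5* was not tested.

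Genes of 3 downstream kinases rose with cold. *Gsk3a*, a glycogen synthase kinase that AKT inhibits, held 72.7, 80.0 and 73.9 CPM on NCD at 22 °C and 112, 142 and 128 CPM at 4 °C. It rose on NCD (log2 fold change 0.75, edgeR adjusted p = 0.00361) and on HFD (0.60, edgeR adjusted p = 0.00743). *Pdpk1*, the kinase that phosphorylates AKT, rose by 0.55 on NCD and 0.60 on HFD (edgeR adjusted p = 0.0301 and 0.0146). On NCD *Mtor* rose by 0.63 and *Pde3b*, a phosphodiesterase activated by AKT, by 0.77 on the log2 scale (edgeR adjusted p = 0.00712 and 0.00592). On HFD *Mtor* passed the adjusted p but not the fold threshold (0.47, edgeR adjusted p = 0.0194), and *Pde3b* passed neither (0.42, edgeR adjusted p = 0.057). The interaction passed for neither gene (edgeR adjusted p = 0.886 and 0.799). With cold on HFD, *Irs3* fell by 1.98 and *Foxo4* fell by 0.95, and *Tbc1d1*, the paralogue of *Tbc1d4*, rose by 0.54 on the log2 scale (edgeR adjusted p = 0.00991, 0.00109 and 0.0408). On NCD their log2 fold changes were -0.48, -0.40 and 0.09, none past the threshold. The interaction of diet and cold passed for none of them (edgeR adjusted p = 0.692, 0.591 and 0.781), so a difference between the diets was not shown. The summed level of 3 white adipocyte markers was 106 to 298 CPM on HFD at 22 °C and 41.5 to 75.8 CPM at 4 °C. Of the 3, *Lep* fell and *Retn* rose in this comparison, and their part in the fall of *Irs3* was not tested.

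Diet changed the glucose transporter gene. *Slc2a4*, which encodes GLUT4, stood at 612, 593 and 535 CPM on NCD and 409, 370 and 322 CPM on HFD at 22 °C, and at 625, 706 and 784 CPM on NCD and 311, 434 and 402 CPM on HFD at 4 °C. No HFD library reached an NCD library at either temperature. It fell by 0.66 at 22 °C and by 0.88 at 4 °C on the log2 scale (edgeR adjusted p = 0.0460 and 0.00868). The adipocyte marker sum given beside *Tbc1d4* was also lower on HFD at 4 °C, while at 22 °C it overlapped between diets (9054 to 10940 CPM on NCD, 7332 to 9107 CPM on HFD), with 0 of the 6 markers past the test there. Its part was not tested. The adaptor gene *Grb7* also passed for HFD at 4 °C, from 53, 29 and 106 counts on NCD to 4, 15 and 6 counts on HFD (edgeR adjusted p = 0.0148). No fold is quoted in the text, since its HFD libraries held few counts and it passed the filter through the NCD libraries. With HFD at 4 °C the adaptor gene *Sh2b2* had a log2 fold change of -0.88, while the docking protein gene *Dok1* rose by 1.19 and *Enpp1*, whose product can bind the insulin receptor, rose by 1.59 on the log2 scale (edgeR adjusted p = 0.0288 to 0.0410). The last 2 rest on low counts. At 4 °C *Dok1* held 23, 29 and 41 counts on NCD and 65, 71 and 126 on HFD. *Enpp1* held 28, 40 and 47 counts on NCD and 82, 160 and 184 on HFD.

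**Figure D4:**
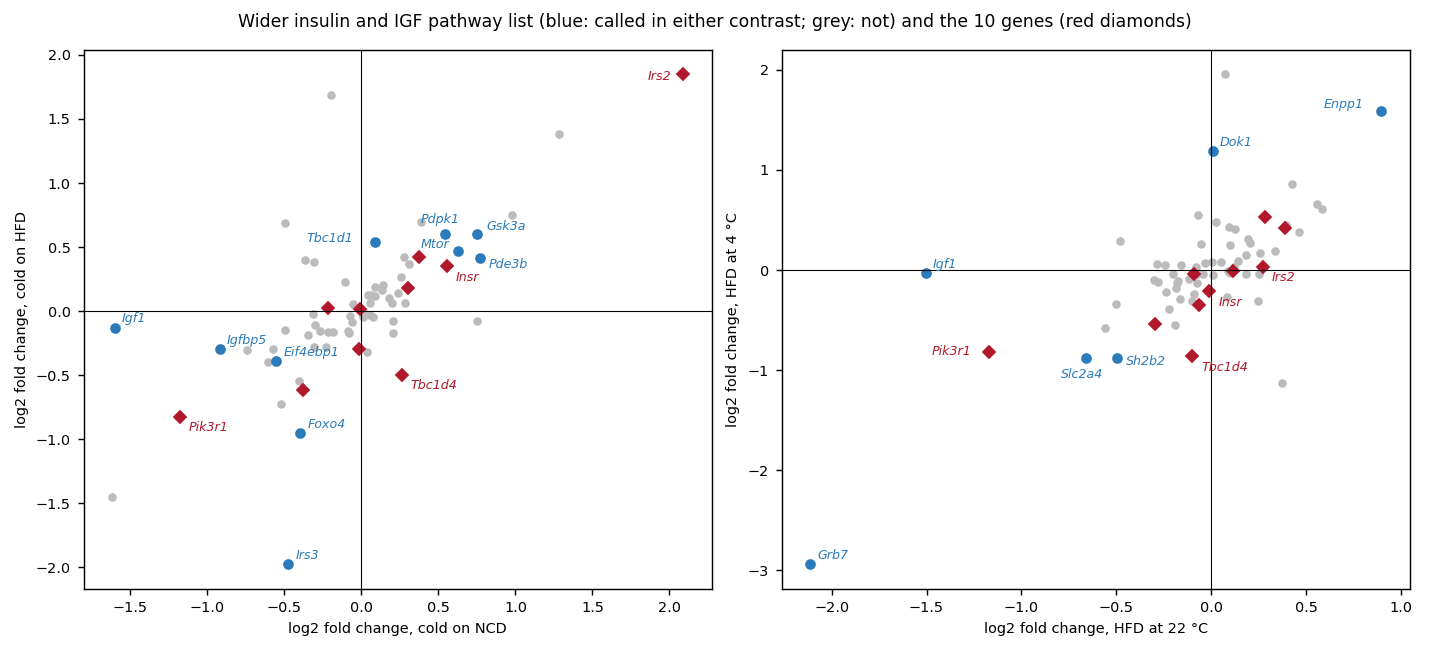
Log2 fold changes of the 60 further pathway genes (blue if past the test in either comparison of the panel, grey if not) and the 10 genes (red diamonds), cold on NCD against cold on HFD on the left, HFD at 22 °C against HFD at 4 °C on the right. *Irs2* lies at the upper right of the cold panel, and *Igf1* lies far left of 0 on the horizontal axis of each panel and near 0 on the vertical axis. In the diet panel *Slc2a4* lies below 0 on both axes. *Grb7* lies farther to the lower left there and rests on few counts in its HFD libraries.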

How the data were processed

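Total RNA-seq of 12 iBAT libraries was analysed. Per the labels and the study's methods, the authors filtered the reads with cutadapt and quantified them with salmon against GENCODE M22 and RNAcentral 5 on GRCm38; versions, the strand setting and the handling of multimapping reads are not given in the sources used here. The deposited table lists estimated counts that the authors had summed to genes and rounded, without scaling, and reads shared by paralogues were divided by salmon. Genes were kept with filterByExpr of edgeR 4.0.16 (R 4.3.3, minimum count 10), scaled by TMM and fitted with 1 quasi-likelihood model of the 4 group means. CPM are the TMM-scaled counts, lengths per kilobase are merged exons of GENCODE M21 (GRCm38), and the sequences are from RefSeq (GRCm38.p6). The code was tested on simulated counts.

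Same-numbered libraries were checked for shared deviations from their group means over all genes. Within a diet every correlation exceeded 0.1 (0.155 to 0.456), so the replicate block within diet is given where it changes a call, and between diets they ran from -0.211 to 0.365. The highest within each diet, 0.456 on NCD and 0.386 on HFD, came from pairs in which both libraries were rich in muscle markers. The part of muscle in the pairing was not tested. The pairing comes from this check and from the batches, not from a stated animal. No 2 libraries of a group agreed within sampling noise.

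The members, the pathway and FOXO target lists, the markers and the motifs were chosen with earlier results of these data known. Of the 2 lists, genes called in a comparison are named, at most 6 per list and comparison by the smallest adjusted p, and for each called member the 3 genes with the highest Pearson r of log2 CPM (prior count 2). Alternatives were DESeq2 1.42.0 as test and as size factors, no filter, other thresholds, batch or replicate as a term, batch 1 alone, the 6 libraries compared, each library left out, and, chosen after seeing the data, a muscle score (mean log2 CPM of the 10 markers) as a term. Counting error alone allows up to 3 counts where 0 are seen.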

Additional observations from a re-analysis of the deposited data

How the results depend on the processing

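Under every alternative run, *Irs2* and *Insr* kept their direction for cold on both diets and *Tbc1d4* for HFD at 4 °C, and no called member reversed. The number of members called for cold on NCD was 2 and became 1 when only the 6 libraries compared were fitted, where *Irs2* missed the threshold (2.10, edgeR adjusted p = 0.0527). It became 3 with no filter, which added *Pik3r1* (all genes called, 1062 against 1049), and 3 with no minimum fold change, which added *Akt1* (1242). For cold on HFD it was 1 and became 2 with the replicate block within diet, which added *Irs1* (all genes called, 2153 against 1603). It was also 2 with no minimum fold change, which added *Akt1* (1920 of all genes called). For HFD at 4 °C it was 1 and became 0 with the replicate block within temperature (*Tbc1d4* adjusted p = 0.0593), 0 in batch 1 alone and 0 in the 6 libraries compared (adjusted p = 0.0569). For the 4 groups it was 0 (all genes called, 427). It became 2 with no filter (1082), 4 with DESeq2 (2625) and 5 at an adjusted p under 0.05 (4067, which is 24.3%). The fit with no filter tested every gene with any count, so its numbers over all genes have a larger base. The replicate block within diet changed no other member's call, apart from the adjusted p of *Akt1* on NCD given above, and the block over all 4 groups changed none. Numbers between diets did not pair by the check. Leaving out 1 library gave 0 to 2 members for cold on NCD, 0 to 1 for cold on HFD, 0 for the diet at 22 °C, 0 to 1 for the diet at 4 °C, 0 to 1 for the 4 groups and 0 for the interaction.

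Over all genes, batch 1 alone called 352 genes for cold on NCD (1049 in all libraries), 416 for cold on HFD (1603), 42 for the diet at 22 °C (349) and 53 for the diet at 4 °C (795). The replicate block within diet called 1483 genes for cold on NCD and 2153 for cold on HFD. DESeq2 called 828 genes for the diet at 22 °C, and 1323 at 4 °C. Fits of the 6 libraries compared gave 855 genes for cold on HFD and 149 for the diet at 4 °C, where the replicate block within temperature gave 482. For the 4 groups, 427 genes became 1082 with no filter, 2625 with DESeq2, 270 with the block over all groups, 0 in batch 1 and 4067 at an adjusted p under 0.05. For the interaction, 0 became 27 with no filter, 64 with DESeq2, 1 and 2 with the replicate block over all groups and within diet, and 10 with the muscle score. Leaving out 1 library gave 490 to 1112 genes for cold on NCD, 1013 to 1672 for cold on HFD, 117 to 369 for the diet at 22 °C, 239 to 992 for the diet at 4 °C, 106 to 255 for the 4 groups and 0 to 22 for the interaction, so the shares of all genes set beside the member counts move with single libraries. The causes were not tested.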

Other observations

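Of 26 genes known as targets of FOXO factors, all 26 passed the low-count filter. Cold on NCD raised 2 and lowered 0 of them, against 3.72% and 2.55% of all genes (edgeR quasi-likelihood test). Cold on HFD raised 0 and lowered 1, against 5.39% and 4.19%. HFD at 22 °C raised 0 and lowered 0, against 0.992% and 1.09%, and HFD at 4 °C raised 1 and lowered 1, against 2.06% and 2.69%. The median log2 fold change of the list was 0.40, 0.09, 0.43 and -0.02 in that order, against -0.01, -0.04, 0.03 and 0.02 over all genes tested. In the interaction of diet and cold the median was -0.38 over the list and -0.03 over all genes, and 0 of the 26 passed. Differences between the medians of the list and of all genes were not tested.

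The transcriptional coactivator gene *Ppargc1a* rose with cold on NCD by 2.25 on the log2 scale (SE 0.50, edgeR adjusted p = 0.0202), from 70.5, 49.5 and 53.5 CPM to 274, 475 and 74.8 CPM, with the lowest and the highest cold value in the same libraries as for *Irs2*. It is also among the 8 brown adipocyte markers, whose summed level was 5895 to 7370 CPM on NCD at 22 °C and 19620 to 23090 CPM at 4 °C. *Bnip3*, a mitophagy receptor gene, rose by 1.05 (edgeR adjusted p = 0.0305). Cold on HFD changed the cell cycle inhibitor gene *Cdkn1b* by -0.51 (edgeR adjusted p = 0.0396), from 26.5, 35.1 and 30.4 CPM to 24.7, 22 and 18.0 CPM. With HFD at 4 °C the stress-response gene *Sesn2* rose by 1.00 (edgeR adjusted p = 0.0490), and *Pnpla2*, the gene of adipose triglyceride lipase, fell by 0.66 on the log2 scale (edgeR adjusted p = 0.0386), from 1384, 1430 and 1649 CPM on NCD to 913, 1134 and 773 CPM on HFD. The sum of the 6 adipocyte markers was 11790 to 13700 CPM on NCD at 4 °C and 7384 to 9534 CPM on HFD at 4 °C, and its part in the value of *Pnpla2* was not tested.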
